A study of Mus musculus with 6 samples.

Results

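The 10 genes described here handle iron or zinc in host cells: the ferritin subunits Fth1 and Ftl1, the metal transporters Slc11a1, Slc40a1, Slc30a1 and Slc39a14, the transferrin receptor Tfrc, the siderophore-binding protein Lcn2 and the metallothioneins Mt1 and Mt2. They were taken by gene name from a table of 54532 genes, and each name matched 1 row. Macrophages from wild type (WT) animals were compared with macrophages from progranulin knockouts (PGRN KO), both of the C57BL/6J strain per the labels. Progranulin, the product of Grn, is a secreted glycoprotein with roles in inflammation and in the lysosome. All cells had been plated at 2000000 per well and exposed to live Candida albicans for 6 hours at 1 fungal cell per macrophage, so the data compare genotypes after challenge, and unchallenged cells were not analysed here. There were 3 WT libraries (replicates 1, 2 and 3) and 3 PGRN KO libraries (replicates 4, 5 and 6). The labels give the peritoneal cavity as the source of the cells, whereas the study's methods describe bone marrow-derived macrophages and another ratio of fungus to cells, and the labels were followed. The knockout mice and the WT mice came from different suppliers, which cannot be told apart from genotype, and nothing in the labels says whether replicates came from separate animals, so that p-values measure only the spread between these libraries.

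Nutritional immunity is the withholding of metals from microbes by the host. A macrophage takes up iron through the transferrin receptor, stores it in ferritin, and releases it through ferroportin, the product of Slc40a1. NRAMP1, the product of Slc11a1, moves iron and manganese out of the phagosome. Zinc enters the cytosol through ZIP transporters such as ZIP14 (Slc39a14), is bound there by metallothioneins, and leaves it through ZnT transporters such as ZnT1 (Slc30a1). C. albicans depends on both metals for growth.

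Slc39a14 fell to 52.2% of its WT mean and Mt2 to 76.1%, and these 2 were the only members that passed an adjusted p of 0.05 over all genes tested with all 6 libraries. Slc39a14 passed in all 20 alternative settings of the processing and Mt2 in 12 of them. Ferritin transcripts were the most abundant of the group: Ftl1 was at 145% of its WT mean and Fth1 at 110%, neither past the threshold. Mt1, Slc11a1 and Tfrc were below the WT range in every PGRN KO library and missed the threshold, with adjusted p from 0.0515 to 0.0654.

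Of the 10 members, 8 had a mean of at least 1 FPKM (fragments scaled to gene model length and library size) and were tested with limma on log2(FPKM + 1), and Slc40a1 and Slc30a1 were below that level. The count of 2 called members of 8, both lower and 0 higher, compares with 24.2% of the 8882 tested genes called in either direction, 13.8% lower and 10.4% higher, so that the share of called members was near the background. The WT and PGRN KO values did not overlap for 6 of the 8, against 48.8% of all tested genes. The median log2 fold change of the 8 was -0.34, beside -0.031 over all tested genes. In the exact two-sided permutation test of single members, 3 against 3 libraries cannot give a p below 0.1, and the 6 members without overlap reached 0.1.

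**Figure D1:**
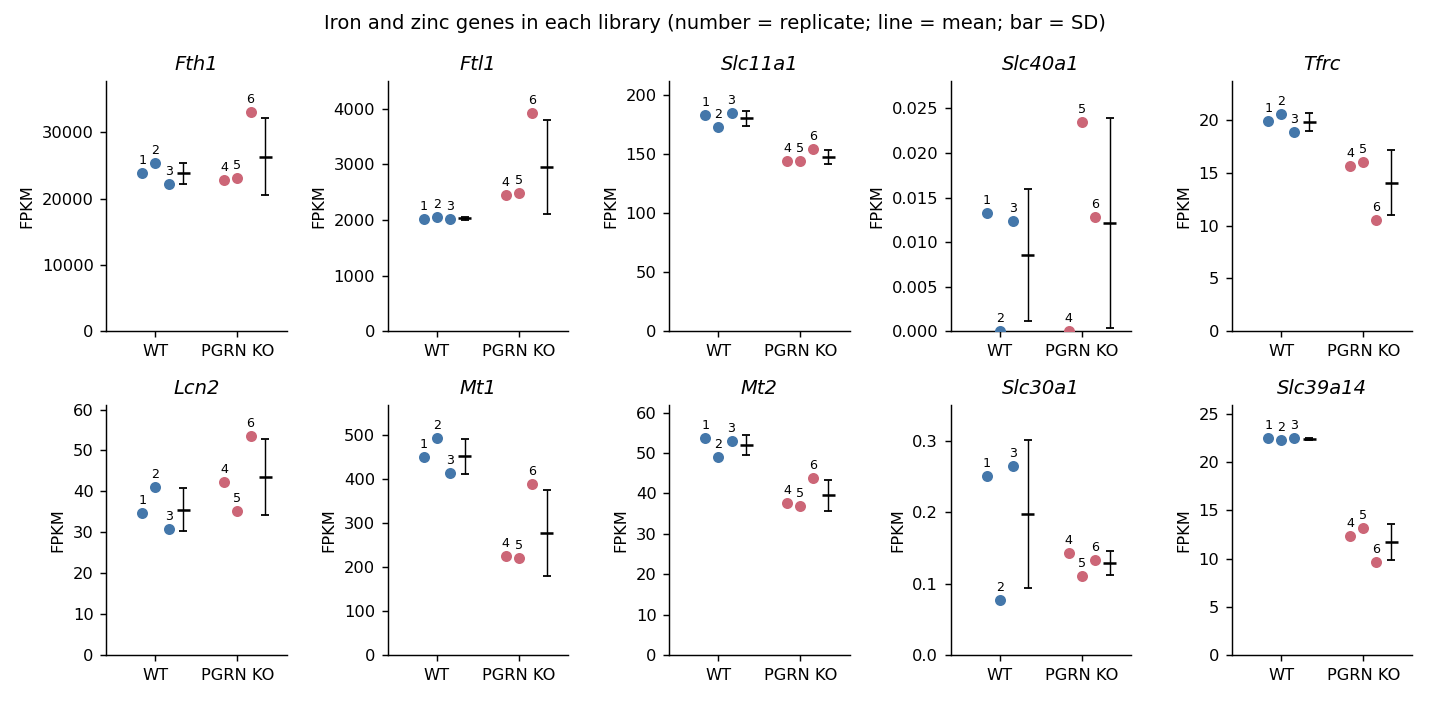
FPKM of the 10 genes (vertical axes, each from 0) in the 3 WT and 3 PGRN KO libraries, with points numbered by replicate and the mean and SD beside them. Slc39a14, Mt1, Mt2, Slc11a1 and Tfrc lie lower in all 3 PGRN KO libraries and Ftl1 lies higher, while replicate 6 stands apart from replicates 4 and 5 for Fth1, Ftl1, Mt1 and Tfrc.

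The libraries held 15996786 to 17551619 counted fragments. Grn was at 323 to 337 FPKM in WT and at 0 to 0.0167 FPKM in PGRN KO, as the labels require. All 10 macrophage markers were present, with a summed level of 12694 to 13691 FPKM in WT and 11472 to 15874 FPKM in PGRN KO, while 4 of 8 markers of large peritoneal macrophages, Timd4 among them, were under 1 FPKM in every library. The summed FPKM of these 8 ran from 27.2 to 31.4 over the WT libraries and from 43.2 to 49.5 over the PGRN KO libraries. Of the 4 that were tested, Cd5l and Icam2 were significantly higher. Cd5l rose most, from a mean of 7.21 to 22.8 FPKM. Gata6 and Prg4 did not pass, at 114% and 89.4% of their WT means. Timd4 was lower in every PGRN KO library, with its mean going from 0.149 to 0.0258 FPKM. The means of Alox15 and Selp were lower too, and that of Vsig4 was higher. Summed markers of B cells were 1.501 to 2.49 FPKM in WT and 6.62 to 8.92 FPKM in PGRN KO, those of mast cells 2.23 to 3.19 and 9.31 to 13.9 FPKM, and those of fibroblasts and mesothelium 1.096 to 1.18 and 2.04 to 3.65 FPKM. Of the last list, Col1a1, Col1a2, Col3a1 and Dcn were higher in every PGRN KO library. The means of its mesothelial markers Msln, Upk3b and Krt19 were lower in PGRN KO. Of the mast cell list, Cpa3, Cma1, Mcpt4 and Tpsb2 were higher in every PGRN KO library, whereas the mean of Kit was lower. The part of these cells in the results was not tested. In bulk RNA, fewer cells of a type and less RNA per cell cannot be told apart.

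PGRN KO replicate 6 stood apart in a way that followed gene length, and this touches the members unequally. Its correlation with replicates 4 and 5 across genes was 0.971 and 0.972, whereas replicates 4 and 5 correlated at 0.992 and the WT libraries at 0.991 to 0.993. The median difference of replicate 6 from the mean of replicates 4 and 5 on the log2(FPKM + 1) scale was 0.40 for gene models of 1000 to 2000 bases and -0.36 for those of at least 8000 bases. For gene models under 1000 bases it was 0.29. Short members were high in this library: the difference was 0.81 for Mt1, 0.67 for Ftl1 and 0.53 for Fth1, but 0.23 for Mt2, the shortest. It was 0.46 for Lcn2 and 0.095 for Slc11a1. The long members were low, with -0.55 for Tfrc and -0.37 for Slc39a14. The tested members are therefore given with and without this library, and after a loess fit of each library on the GC share and the length of gene models was subtracted, referred to as the GC and length adjustment.

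**Figure D2:**
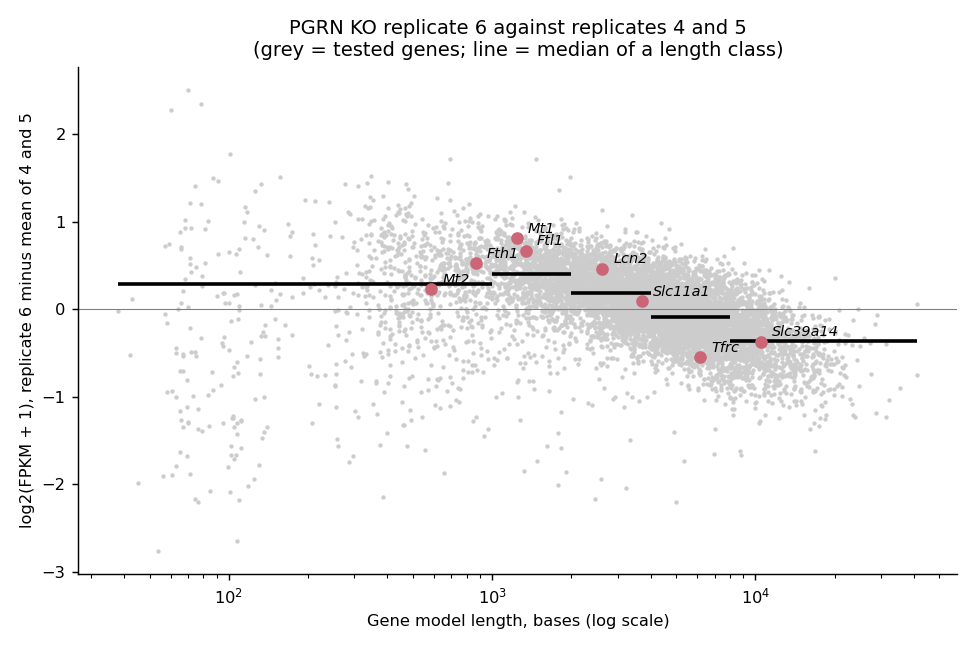
Difference of PGRN KO replicate 6 from the mean of replicates 4 and 5 in log2(FPKM + 1) (vertical axis) against gene model length in bases (horizontal log axis), with grey points for tested genes, lines for the median of each length class and red points for the members. The medians go from 0.40 at 1000 to 2000 bases to -0.36 at 8000 bases and above, and Tfrc and Slc39a14 lie below 0 where the shorter members lie above it.

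Without replicate 6, 6 of the 8 members were called, 5 lower (Slc39a14, Mt1, Mt2, Slc11a1 and Tfrc) and 1 higher (Ftl1), where 41.3% of all tested genes were called. After the GC and length adjustment, with all 6 libraries, the same 6 members were called in the same directions, where 33.1% of tested genes were called. With sample quality weights 6 members were called too, where 47.6% of tested genes were, and with the adjustment and without replicate 6 again 6, where 41.9% were, so that these settings raised the calls among all genes as well. Fth1 and Lcn2 were not called in any of the 20 alternatives.

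Ferritin is a shell of heavy and light subunits, of which the heavy subunit, encoded by Fth1, oxidizes iron for storage and the light subunit, encoded by Ftl1, helps to form the mineral core. Fth1 (ENSMUSG00000024661, chromosome 19, 9982703 to 9985092, GRCm38) had the highest FPKM of all genes in the table and took 1.98% to 2.03% of all counted fragments in WT libraries. In PGRN KO it took 2.07% and 2.18% in replicates 4 and 5 and 2.86% in replicate 6.

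Translation of both ferritins and the stability of the Tfrc transcript are known to be set by iron through the iron-responsive element, a hairpin with an unpaired C and a CAGTGN loop that binds the iron regulatory proteins ACO1 and IREB2 when iron is low. The elements of the members are shown because they tie storage, uptake and export to 1 control, which acts on protein yield for ferritin and on RNA level for Tfrc. They were found by searching the sense strand of GENCODE transcripts for a C, 5 bases, CAGTGN with the last base other than G, and 5 more bases that all pair with the first 5 (G-T pairs allowed). The pattern occurred in 1.01% of protein-coding genes. Among the members it lay in the 5′ UTR of Fth1 (chr19:9982732-9982760, plus strand), Ftl1 (chr7:45459779-45459807, minus strand) and Slc40a1 (chr1:45925465-45925493, minus strand), and at 4 places in the 3′ UTR of Tfrc (plus strand, GRCm38), at chr16:32631219-32631247, chr16:32631598-32631626, chr16:32631663-32631691 and chr16:32631710-32631738. Capitals mark the unpaired C and the loop:
Fth1: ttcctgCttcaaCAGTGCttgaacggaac
Ftl1: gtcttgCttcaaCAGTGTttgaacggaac
Slc40a1: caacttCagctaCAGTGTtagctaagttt
Tfrc element 1: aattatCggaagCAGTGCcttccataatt
Tfrc element 2: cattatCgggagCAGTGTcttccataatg
Tfrc element 3: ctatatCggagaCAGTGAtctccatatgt
Tfrc element 4: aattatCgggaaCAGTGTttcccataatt
The Fth1 and Ftl1 elements share the 5-base stem on both sides of the loop. The other 6 members held no match in the transcripts searched, which says only that these letters are not there.

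The FPKM of Fth1 were 23905, 25384 and 22226 over WT replicates 1 to 3, and they were 22825, 23085 and 33077 over PGRN KO replicates 4 to 6. Replicates 4 and 5 lay within the WT range and replicate 6 lay above it. The log2 fold change was 0.12 ± 0.19 (SE, n = 3 each) with a limma adjusted p of 0.670 and a 95% interval from -0.34 to 0.58. Without replicate 6 it turned to -0.05 ± 0.09, and after the GC and length adjustment it was 0.0025 ± 0.081, again not past the threshold.

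Ftl1 (ENSMUSG00000050708, chromosome 7, 45457944 to 45459884) was measured at 2014, 2059 and 2013 FPKM in WT and at 2441, 2483 and 3917 FPKM in PGRN KO. All PGRN KO values lay above all WT values, and WT spread little, with an SD of 26.4 FPKM around a mean of 2029. On the log2 scale the difference was 0.50 ± 0.20 with a limma adjusted p of 0.107. Leaving out replicate 6 lowered the fold change to 0.28 ± 0.05 and brought the adjusted p to 0.01003, and the GC and length adjustment gave 0.33 ± 0.07 and 0.0155. On a TPM scale, where each library has the same sum, Ftl1 also passed, at 0.56 ± 0.12 with an adjusted p of 0.0168. It passed in 6 of the 20 alternatives. It did not pass when any single library other than PGRN KO replicate 6 was left out (limma adjusted p 0.103 to 0.253).

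The Ftl1 values are uncertain because of sequence and exons shared with other genes. Of its 31-base sequence words, 64.2% were found as well among 33 further genes, with Ftl1-ps1 sharing the most, so that reads could have been split or set aside in counting. Ftl1-ps1 itself was at 29.1, 31.2 and 39.1 FPKM in WT and at 40.5, 39.4 and 91.7 FPKM in PGRN KO, which is low beside Ftl1. Gm10252 covers 26.5% of the Ftl1 exons on the opposite strand and was under 1 FPKM in every library. The miRNA gene Gm22133 covers 8.13% on the same strand and was at 0 FPKM in every library. The sources used here do not say whether counting used strand.

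The ratio of Fth1 to Ftl1 FPKM was 11.9, 12.3 and 11.04 in WT and 9.35, 9.30 and 8.45 in PGRN KO. The groups did not overlap, also without replicate 6. The ratio was added as a description of these values and was given no test. It carries the uncertainty of the Ftl1 values given above. Its level also depends on the length used. The gene model of Fth1 has 866 bases and its longest protein-coding transcript 1494, where Ftl1 has 1340 and 968.

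Tfrc (ENSMUSG00000022797, chromosome 16, 32608920 to 32632794), which takes up transferrin-bound iron, was measured at 20.0, 20.6 and 18.9 FPKM in WT and at 15.7, 16.04 and 10.5 FPKM in PGRN KO. Every PGRN KO library was below the lowest WT library, and replicate 6 was lowest. The difference on the log2 scale was -0.49 ± 0.16 with a limma adjusted p of 0.0654. The gene model is long, at 6185 bases, and without replicate 6 the difference shrank to -0.30 ± 0.06 while the adjusted p became 0.00854. With the adjustment it was -0.34 ± 0.09 with an adjusted p of 0.0228. On the TPM scale it was -0.43 ± 0.21 and did not pass (0.194). Nor did Tfrc pass without WT replicate 1, 2 or 3 (0.177, 0.184 and 0.138). It passed in 5 of the 20 alternatives.

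Slc11a1 (ENSMUSG00000026177, chromosome 1, 74375195 to 74386062) encodes NRAMP1, and C57BL/6 mice are known to carry a coding allele that impairs this protein. Its transcript was measured at 183, 172 and 185 FPKM in WT and at 144, 144 and 154 FPKM in PGRN KO. The groups did not overlap and replicate 6 lay close to the other PGRN KO libraries. The log2 fold change was -0.29 ± 0.09 with a limma adjusted p of 0.0515. It was -0.32 ± 0.05 with an adjusted p of 0.00519 without replicate 6, and -0.32 ± 0.06 with 0.00883 after the adjustment. On the TPM scale it was -0.23 ± 0.11 and did not pass (0.164).

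Slc40a1, which encodes ferroportin, the only known cellular iron exporter, was close to undetected. Its gene model of 9000 bases received 2, 0 and 2 fragments in WT and 0, 4 and 2 in PGRN KO, 10 fragments in all. A count of 0 allows up to 3 fragments in a library, which is 0.0176 to 0.0225 FPKM (counting error only), and 5 of the 6 libraries held fewer. No difference was detectable at this depth.

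Lcn2 (ENSMUSG00000026822, chromosome 2, 32384633 to 32388252) encodes lipocalin-2, which binds iron-loaded bacterial siderophores. It was measured at 34.6, 41.2 and 30.7 FPKM in WT and at 42.2, 35.1 and 53.5 FPKM in PGRN KO. The groups overlapped. Limma gave a log2 fold change of 0.28 ± 0.18 with an adjusted p of 0.280, and the 95% interval from -0.14 to 0.69 leaves room for changes in either direction. Without replicate 6 it was 0.12 ± 0.14, and with the adjustment it was 0.20 ± 0.13.

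Neutrophils also carry lipocalin-2 in their granules. Of 12 neutrophil markers, 9 were under 1 FPKM in every library, and Ly6g, Elane and Cxcr2 were at 0 in all 6. The summed level of the 12 was 80.2 to 87.2 FPKM in WT and 53.0 to 54.5 FPKM in PGRN KO. S100a8, Mmp8 and Csf3r made up nearly all of it, S100a8 falling from a mean of 49.98 to 23.3 FPKM while Mmp8 was at 20.2 and 19.5 FPKM. Their part in the Lcn2 values was not tested.

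Metallothioneins are small cysteine-rich proteins that bind zinc and copper, and their genes are known targets of the zinc-sensing factor MTF1, which binds metal-responsive elements near the start site. Mt1 (ENSMUSG00000031765, chromosome 8, 94179082 to 94180327) and Mt2 (ENSMUSG00000031762, chromosome 8, 94172664 to 94173568) are neighbours on the plus strand. Their upstream sequences are shown because the element core is known to lie there, and because all PGRN KO libraries were below all WT libraries for both genes, although Mt1 did not pass the test. The core was searched as TGCACNC or TGCGCNC on both strands in RefSeq windows (GRCm38.p6) from 250 bases before to 50 after each start site. The Mt2 window held 4 cores and the Mt1 window 3, whereas 25.7% of all windows held at least 1, 1.97% at least 3 and 0.517% at least 4. Printed are the last 250 bases before the Mt2 start site (chr8:94172368-94172617, plus strand) and the last 100 before the Mt1 start site (chr8:94178989-94179088, plus strand), with cores in capitals, as GTGTGCA where the core reads on the minus strand. The 4th core of Mt2 (chr8:94172622-94172628) lies after the RefSeq start site but before the Mt2 gene start given above, 94172664. The other 2 cores of Mt1 lie after the RefSeq start site:
Mt2: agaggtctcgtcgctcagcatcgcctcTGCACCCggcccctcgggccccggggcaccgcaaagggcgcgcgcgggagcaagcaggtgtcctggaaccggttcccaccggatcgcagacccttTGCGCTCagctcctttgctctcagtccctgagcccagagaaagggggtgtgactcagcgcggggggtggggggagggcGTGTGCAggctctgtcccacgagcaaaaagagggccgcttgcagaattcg
Mt1: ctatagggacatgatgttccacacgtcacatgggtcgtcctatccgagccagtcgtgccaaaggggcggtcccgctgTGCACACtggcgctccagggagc
Of the 8 members with a window, Slc30a1 held 2 cores and 1 of the 2 windows of Tfrc held 2 that overlap on opposite strands, while Fth1, Ftl1, Slc11a1 and Lcn2 held none. A core is a match of letters, not a bound site.

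Mt1 was measured at 451, 493 and 413 FPKM in WT and at 224, 220 and 390 FPKM in PGRN KO. The values of replicates 4 and 5 were far below WT, and replicate 6 lay just under the lowest WT library. The log2 fold change was -0.75 ± 0.23 with a limma adjusted p of 0.0531. It was the member on which replicate 6 bore most: without it the log2 fold change was -1.02 ± 0.08 with an adjusted p of 0.000719, and with the adjustment it was -0.92 ± 0.12 with 0.00190. Mt1 passed in 10 of the 20 alternatives.

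Mt2 was measured at 53.8, 49.1 and 52.9 FPKM in WT and at 37.7, 36.9 and 43.9 FPKM in PGRN KO. The groups did not overlap, and all 3 PGRN KO libraries were at least 5 FPKM below the lowest WT library. The log2 fold change was -0.39 ± 0.10 with a limma adjusted p of 0.0322. The call was lost without WT replicate 1, 2 or 3 (0.141, 0.0854 and 0.112) and without PGRN KO replicate 4 or 5 (0.0892 and 0.0842), while without replicate 6 the fold change was -0.46 ± 0.06 with an adjusted p of 0.00228. With the adjustment it was -0.54 ± 0.09 with 0.00425, and on the TPM scale it was -0.34 ± 0.11 and did not pass (0.0654). The values rest on 384 to 561 fragments a library, and the antisense gene Gm45774 covers 73.5% of the Mt2 exons. Gm45774 was at 0.0650 to 0.355 FPKM, and since the sources used here do not say whether counting used strand, the level of Mt2 is uncertain.

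The ratio of Mt1 to Mt2 FPKM was 8.38, 10.0 and 7.82 in WT and 5.94, 5.95 and 8.89 in PGRN KO. Replicates 4 and 5 were below all WT libraries and replicate 6 was within their range, so the groups overlapped.

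Slc39a14 (ENSMUSG00000022094, chromosome 14, 70303469 to 70351425) encodes ZIP14, an importer of zinc, manganese and iron not bound to transferrin. It was measured at 22.5, 22.4 and 22.5 FPKM in WT and at 12.3, 13.2 and 9.64 FPKM in PGRN KO. The WT libraries agreed closely, with an SD of 0.0909 FPKM, and the PGRN KO libraries lay far below them. The log2 fold change was -0.89 ± 0.12 with a limma adjusted p of 0.00447 and a 95% interval from -1.18 to -0.61, the largest change among the members in the fit on all 6 libraries. Mt1 changed more without replicate 6, after the adjustment and with sample quality weights. Slc39a14 passed in all 20 alternatives, with adjusted p from 7.03e-05 to 0.0315. Without replicate 6, which was low for long gene models, its log2 fold change was -0.77 ± 0.05, and with the adjustment it was -0.76 ± 0.07.

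Slc30a1, the gene of the zinc exporter ZnT1 in the plasma membrane, was below the level required for the test. It had 22, 6 and 25 fragments in WT and 13, 11 and 12 in PGRN KO, which is 0.0774 to 0.264 FPKM and 0.111 to 0.143 FPKM. The PGRN KO values lay inside the WT range, and with no filter on low values the log2 fold change was -0.08 ± 0.07 (limma adjusted p 0.565).

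**Figure D3:**
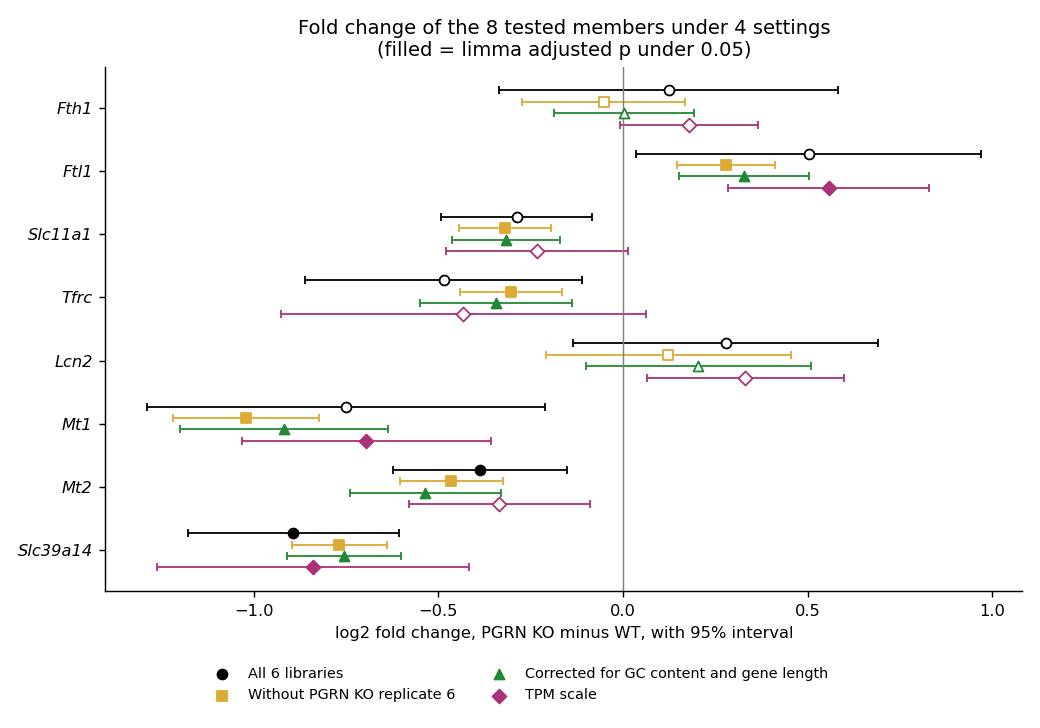
Log2 fold change of the 8 tested members, PGRN KO minus WT (horizontal axis), with 95% intervals, in the fit on all 6 libraries, without PGRN KO replicate 6, after the GC and length adjustment, and on a TPM scale, with filled symbols for an adjusted p under 0.05. Slc39a14 is filled in all 4 at -0.89 to -0.76, Mt1 moves from -0.75 to -1.02 without replicate 6, and Fth1 lies near 0 throughout.

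By FPKM, the order of the WT means was Fth1 (23838 FPKM), Ftl1 (2029), Mt1 (452), Slc11a1 (180), Mt2 (51.9), Lcn2 (35.5), Slc39a14 (22.5), Tfrc (19.8), Slc30a1 (0.197) and Slc40a1 (0.00853). FPKM divides by the length of the gene model, which can differ from that of the transcript. The model of Lcn2 has 2623 bases and its longest protein-coding transcript 915, where Mt2 has 588 and 511. The order of such genes therefore depends on the length used. In WT no neighbours in this order overlapped. In PGRN KO the values of Mt2 overlapped with those of Lcn2, whose mean was then the higher of the pair, and the values of Slc39a14 overlapped with those of Tfrc, whose mean was then the higher.

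To place the members among other genes of metal handling, lists of iron, haem, zinc and copper genes were examined. Of 104 listed genes in the table, 62 were tested, 6 were significantly higher, 13 were significantly lower and 43 did not pass, where the shares over all tested genes were 10.4% higher and 13.8% lower. Their median log2 fold change was -0.081. The number called fell to 8, 6 and 7 without WT replicates 1, 2 and 3, where 8.03%, 9.63% and 9.94% of all tested genes were called. It rose to 29 without PGRN KO replicate 6, where 41.3% of all tested genes were called. All 19 called genes kept their call and direction without replicate 6 and with the GC and length adjustment. On the TPM scale 11 of the 19 kept it, and 7, 6 and 7 did without WT replicates 1, 2 and 3.

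Of 5 tested genes of iron uptake, export and reduction, 2 rose and 2 fell. Slc25a28, the gene of the mitochondrial iron importer mitoferrin-2, was measured at 5.53, 5.58 and 6.74 FPKM in WT and at 16.1, 13.0 and 20.4 FPKM in PGRN KO, and it rose by 1.32 ± 0.16 on the log2 scale (limma adjusted p 0.00343). Slc11a2, the gene of DMT1, the relative of NRAMP1 that moves iron into the cytosol, fell from 40.8 to 42.7 FPKM in WT to 27.0 to 29.5 FPKM in PGRN KO, with a log2 fold change of -0.54 ± 0.08 (0.00569). Both passed in all 20 alternatives. Mcoln1, an iron-permeable lysosomal channel, rose by a log2 fold change of 0.30 ± 0.08 (0.0418) and passed in 13 of the 20 alternatives, the call being lost when any single library other than PGRN KO replicate 6 was left out. Hamp, the gene of hepcidin, the hormone that removes ferroportin, fell from 5.69 to 7.75 FPKM to 1.93 to 4.08 FPKM (0.0162). These values rest on 39, 47 and 47 fragments in WT and 29, 15 and 15 in PGRN KO. The call was lost without WT replicate 2 or 3 and with no filter on low values (0.0568). Hamp has a near-identical copy, Hamp2, with which reads could be shared. Slc39a8, the ZIP transporter most like Slc39a14, was at most 0.420 FPKM in any library.

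Among 16 tested genes of iron sensing and chaperones, 2 fell and 0 rose. Ncoa4, the cargo receptor that delivers ferritin to autophagy, fell by 0.67 ± 0.15 on the log2 scale (limma adjusted p 0.0203), and Pcbp2, which hands iron to ferritin, fell with -0.28 ± 0.08 (0.0431). They passed in 15 and 11 of the 20 alternatives, and Ncoa4 was lost without WT replicate 1, 2 or 3. Pcbp2 was lost on the TPM scale (0.215) and when any single library other than PGRN KO replicate 6 was left out. Neither gene of the iron regulatory proteins passed. Aco1 was at 7.78 to 8.67 FPKM in WT and 5.68 to 6.99 FPKM in PGRN KO (adjusted p 0.0537), and Ireb2 at 5.23 to 6.03 and 3.998 to 6.07 FPKM (0.650).

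Of 15 tested haem genes, 5 fell and 1 rose. Hmox1, whose product breaks down haem and frees its iron, was measured at 642, 656 and 639 FPKM in WT and at 327, 370 and 421 FPKM in PGRN KO. It fell by 0.80 ± 0.12 on the log2 scale (limma adjusted p 0.00565). Nfe2l2, which encodes the activator NRF2, fell with -0.73 ± 0.09 (0.00286), and Bach1, which encodes the haem-sensing repressor of Hmox1, fell with -0.98 ± 0.21 (0.0169). The haptoglobin gene Hp fell to 55.0% of its WT mean and the haem exporter gene Flvcr1 to 57.3%, while Slc48a1, a haem transporter of the phagolysosome, rose to 169%. Hmox1, Nfe2l2 and Slc48a1 passed in all 20 alternatives, whereas Hp, Flvcr1 and Bach1 were lost without WT replicate 1 or 2, and Hp and Flvcr1 also without WT replicate 3. All 7 erythroid markers were under 1 FPKM in every library.

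The zinc transporters went in both directions. Of 9 tested ZIP genes other than Slc39a14, 2 rose and 2 fell. Slc39a11 rose to 179% and Slc39a3 to 172% of the WT mean, and Slc39a1 fell to 77.3% and Slc39a6 to 75.3%. Each of these 4 passed in 13 to 15 alternatives and lost its call without WT replicates 1, 2 and 3 in turn. All 4 changes were smaller on the log2 scale than that of Slc39a14. None of the 5 tested ZnT genes passed, with log2 fold changes from -0.20 for Slc30a5 to 0.18 for Slc30a6. Mtf1, the gene of the zinc sensor that drives metallothioneins, was at 4.34 to 4.59 FPKM in WT and at 2.89 to 4.08 FPKM in PGRN KO, without overlap and with an adjusted p of 0.107.

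S100a8 and S100a9 encode the subunits of calprotectin, which binds zinc and manganese outside the cell. S100a8 was measured at 48.8, 52.8 and 48.3 FPKM in WT and at 21.2, 23.1 and 25.6 FPKM in PGRN KO, and it fell by 1.07 ± 0.10 on the log2 scale (limma adjusted p 0.00142). S100a9 was at most 0.443 FPKM in any library, so that 1 subunit transcript was present without the other. S100a8 is also among the neutrophil markers given above, and their part in this difference was not tested.

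For copper, 1 of 9 tested genes rose and 1 fell. Slc31a1, the gene of the importer CTR1, fell by 0.37 ± 0.08 on the log2 scale (limma adjusted p 0.0168), and Sco1, a mitochondrial copper chaperone, rose with 0.45 ± 0.12 (0.0394). Both lost the call without WT replicates 1, 2 and 3 and PGRN KO replicate 4 in turn, and on the TPM scale. Atp7a, which pumps copper into the phagosome, was at 15.2 to 18.2 FPKM in WT and at 12.2, 13.2 and 3.46 FPKM in PGRN KO (0.146), replicate 6 again being the lowest for a long gene model.

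**Figure D4:**
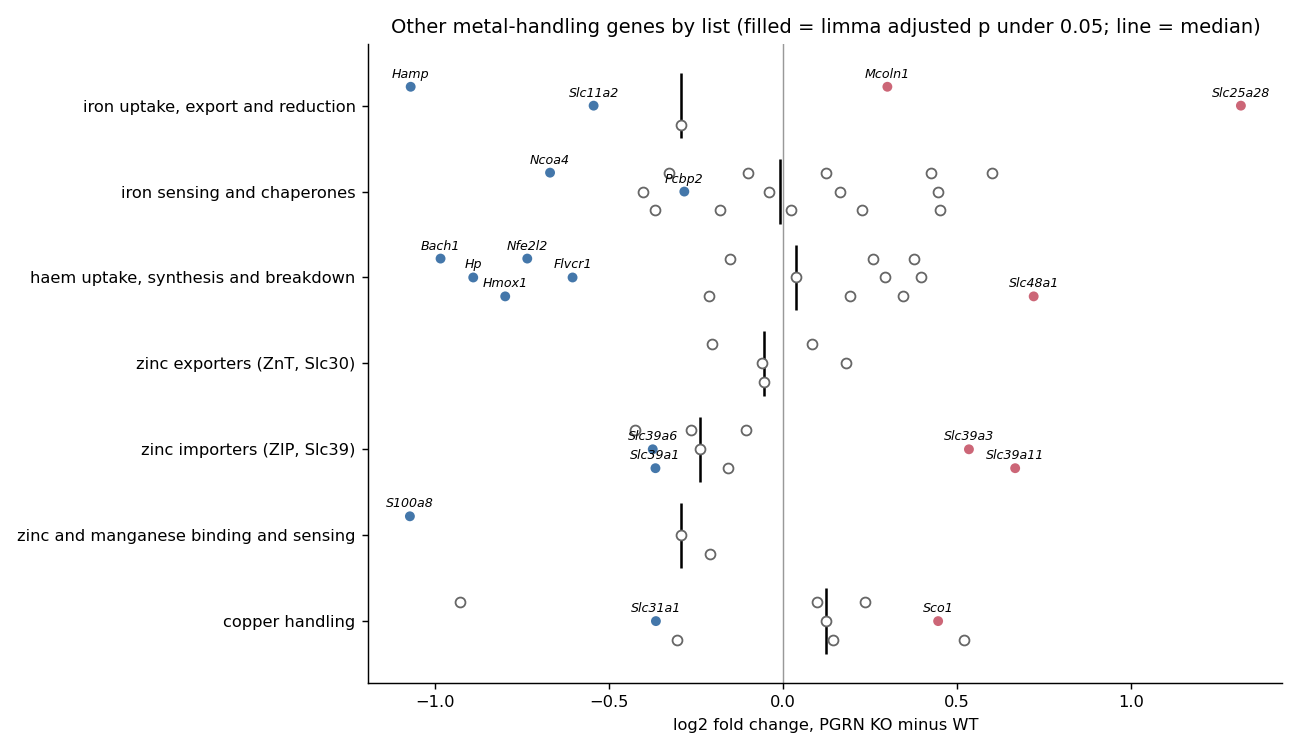
Log2 fold change, PGRN KO minus WT (horizontal axis), of each tested gene in 7 lists of metal handling (rows), with filled points for an adjusted p under 0.05, open points for the rest and a line at each list's median. The called genes lie on both sides of 0 in the lists of iron transport, haem, ZIP transporters and copper, from -1.07 for Hamp and S100a8 to 1.32 for Slc25a28.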

How the data were processed

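Polyadenylated RNA of 3 WT and 3 PGRN KO macrophage samples was sequenced as paired reads from NEBNext Ultra libraries. The authors deposited FPKM per gene. The submitters' processing notes name CASAVA, HISAT2 2.0.5, featureCounts 1.5.0-p3 and DESeq2 1.20.0 on mm10 (GRCm38), whereas the study's methods name HISAT, HTSeq and other versions, so that the counting tool is not settled. Strand use in counting is not stated by either. FPKM times gene length gave whole fragments for 100.0% of values (tolerance 0.001 of a step), and these fragments are the depths given. The library size in the deposited FPKM was 0.974, 0.925 and 1.03 times their sum in WT replicates 1 to 3. In PGRN KO replicates 4 to 6 it was 1.05, 1.09 and 0.9995 times their sum. With the sum as library size, every tested member had a higher log2 fold change. The value of Fth1 went from 0.12 to 0.22 and that of Mt2 from -0.39 to -0.29. Mt2 then lost its call (limma adjusted p 0.0821), while Ftl1 and Mt1 gained one (0.0377 and 0.0493).

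Genes whose FPKM averaged 1 or more were compared as log2(FPKM + 1), a scale that understates the fold change of low genes, with limma 3.58.1 in R 4.3.3 (mean-variance trend, no covariates, two-sided, Benjamini-Hochberg over 8882 genes, threshold 0.05). The test was checked on simulated data. There were 20 alternatives, 6 of which left out 1 library. GENCODE M21 shared the identifier of 99.9% of genes, and RefSeq windows were found for 8 members. The members, the lists and the tests were chosen with earlier results of these data known. Named are the members, Grn, every called gene of a list (at most 6 a list), 13 fixed metal genes, and the 3 genes that correlated best with the member of largest change in each direction.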

Additional observations from a re-analysis of the deposited data

How the results depend on the processing

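No paired analysis was possible because WT carries replicate numbers 1 to 3 and PGRN KO 4 to 6. Slc39a14 and Grn passed in all 20 alternatives, and every tested member other than Fth1 kept its direction. Fth1 turned to -0.052 without PGRN KO replicate 6, -0.044 with sample quality weights and -0.043 with the GC and length adjustment without replicate 6. In these settings and with the adjustment on all libraries Ireb2 turned as well (0.061, 0.030, 0.12 and 0.091). With quality weights, the adjustment, and the adjustment without replicate 6, 6 members were called (5 lower, 1 higher) beside 47.6%, 33.1% and 41.9% of all tested genes, with log2 fold changes of 0.30, 0.33 and 0.27 for Ftl1, -0.33, -0.32 and -0.29 for Slc11a1, -0.33, -0.34 and -0.26 for Tfrc, and -0.997, -0.92 and -1.04 for Mt1. With protein-coding genes only, 4 were called, all lower (28.9% of genes), with Mt1 (-0.75) and Tfrc (-0.49) added, and with a mean FPKM of at least 5 again 4 (30.5%), with Mt1 and Slc11a1 (-0.29) added. Slc11a1 also passed without a variance trend. Without a filter 1 member was called (5.96% of genes), and Mt2 (-0.39) was lost. On the TPM scale Ftl1 (0.56, the 1 member called higher) and Mt1 (-0.70) passed and Mt2 (-0.34) did not, and with summed fragments as library size Ftl1 (0.60, 1 higher) and Mt1 (-0.65) passed and Mt2 (-0.29) did not. Mt1 also passed after quantile normalization (-0.69) and with voom on fragments (-0.75). Without single libraries 1 to 6 members were called (0 to 1 higher, 1 to 5 lower) beside 8.03% to 41.3% of genes, and log2 fold changes ran from 0.28 to 0.62 for Ftl1, -0.052 to 0.22 for Fth1, -0.32 to -0.27 for Slc11a1, -0.58 to -0.30 for Tfrc, -1.02 to -0.61 for Mt1, -0.46 to -0.34 for Mt2 and -0.19 to 0.061 for Ireb2. Of the other metal genes, 6 to 29 were called without single libraries (2 to 9 higher, 4 to 20 lower), 10 without a filter (3 higher, 7 lower), 33 with quality weights (12 higher, 21 lower), 3 higher with a mean FPKM of at least 5 and 8 lower on the TPM scale. In the same order, 8.03% to 41.3%, 5.96%, 47.6%, 30.5% and 17.2% of all tested genes were called in either direction. Over all genes, 42.8% of calls were higher, against 60.3% on the TPM scale and 62.9% with summed fragments. The setting with summed fragments changed only the library size, whose ratios to the sum are given above. Further causes were not tested. With 3 libraries a group, 10 fragments for Slc40a1 and 89 for Slc30a1, changes in these low genes could not be seen.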

Other observations

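The genes whose log2(FPKM + 1) followed Slc39a14 most closely over the 6 libraries were Tlr13, Slc26a11 and Phf20, each with a Pearson correlation of 0.999. Tlr13, the gene of an endosomal receptor for bacterial RNA, was at 12.9 to 13.3 FPKM in WT and at 6.95, 7.55 and 5.26 FPKM in PGRN KO. Like Slc39a14, it was lowest in PGRN KO replicate 6. Those that followed Ftl1 were Smim20 (0.999), Alg5 (0.998) and Cd63 (0.998). Cd63, which encodes a tetraspanin of late endosomes and lysosomes, was at 178, 187 and 183 FPKM in WT and at 220, 222 and 334 FPKM in PGRN KO, and it was highest in replicate 6, as Ftl1 was. These correlations describe 6 libraries that fall into 2 genotypes and share the offset of replicate 6, and no p is given.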
